A study of Mus musculus with 10 samples.

Results

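The genes described here are 30 enzymes and regulators of cholesterol and fatty acid synthesis, measured by RNA sequencing in T cells from mouse mammary tumours. They were listed by function, with earlier results of these data known, out of 17363 named genes in the table. They comprise 8 genes of the mevalonate and isoprenoid steps, 11 of the sterol branch, 6 regulators of the sterol response with a sterol carrier, and 5 of fatty acid synthesis. All 30 were among the 14473 genes tested, which had to reach 10 normalized counts in 2 or more of 8 replicates. A normalized count is a read count divided by 1 scaling factor per library. No member passed the adjusted threshold in any of 6 genotype comparisons. Fdps, which makes farnesyl diphosphate, and Elovl6, which elongates fatty acids, were the members whose libraries separated in the same direction with Tgfbr2 deletion on both Il4 backgrounds. That was 1 member upward and 1 downward of 30, where 4.06% and 3.2% of all genes did so, a share near the background.

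CD4+CD25- T cells were sorted from breast tumours of C57BL/6 mice that carry PyMT, an oncogene transgene that gives mammary tumours, at 23 weeks of age. All mice carried the floxed receptor gene Tgfbr2fl/fl. WT mice had no further change, KO mice had the ThPOKCre transgene, which deletes floxed DNA in the CD4 lineage, IL4-/- mice lacked Il4, and IL4-/-KO mice had both changes. Each genotype had 2 replicates, and each KO replicate had a first and a repeat library made from the same RNA, which gave 10 libraries. The labels do not say whether replicates came from separate mice, and the p-values then rest on a spread that may include technical variation only.

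Cells build cholesterol from acetyl-CoA through mevalonate and farnesyl diphosphate, a branch point from which squalene leads to sterols and geranylgeranyl diphosphate leads to protein prenylation. The transcription factors encoded by Srebf1 and Srebf2 are held in the endoplasmic reticulum by Scap and the Insig proteins while sterols are plentiful, and they raise most of these genes when sterols run low. T cells draw on the same programme for membrane when they are activated and divide.

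The 250 bases upstream of the transcription start were available from RefSeq (GRCm38.p6) for 25 of the 30 members, and Fdft1, Fdps, Sqle, Stard4 and Scd2 had no sequence in the table used. Sequences are shown for the members with an unadjusted p under 0.05 between KO and WT, and for Hmgcs1, the one member with a match to the sterol regulatory element type motif. Capitals mark TCACNCCAC and CCAAT on either strand, so that ATTGG is a CCAAT of the opposite strand. The windows are those of Mvk (chr5:114444019-114444268, plus strand), Mvd (chr8:122443423-122443672, minus strand), Fasn (chr11:120824548-120824797, minus strand), Ggps1 (chr13:14063489-14063738, minus strand), Sc5d (chr9:42264301-42264550, minus strand) and Hmgcs1 (chr13:119690101-119690350, plus strand), each read along the gene.
Mvk: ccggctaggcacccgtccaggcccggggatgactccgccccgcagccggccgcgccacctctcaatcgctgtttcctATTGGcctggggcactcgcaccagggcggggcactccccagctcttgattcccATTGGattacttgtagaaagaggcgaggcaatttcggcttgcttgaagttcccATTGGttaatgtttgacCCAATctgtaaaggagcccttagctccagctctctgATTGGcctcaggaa
Mvd: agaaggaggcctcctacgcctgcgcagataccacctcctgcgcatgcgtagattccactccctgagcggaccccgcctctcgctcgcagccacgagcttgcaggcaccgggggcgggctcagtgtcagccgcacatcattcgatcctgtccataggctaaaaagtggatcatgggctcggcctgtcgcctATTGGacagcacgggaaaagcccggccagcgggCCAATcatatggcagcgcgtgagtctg
Fasn: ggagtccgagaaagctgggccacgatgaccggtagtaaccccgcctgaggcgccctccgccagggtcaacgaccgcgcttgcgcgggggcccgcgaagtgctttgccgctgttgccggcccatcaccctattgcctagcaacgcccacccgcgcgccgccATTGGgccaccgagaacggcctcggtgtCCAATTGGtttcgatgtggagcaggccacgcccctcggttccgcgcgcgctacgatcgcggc
Ggps1: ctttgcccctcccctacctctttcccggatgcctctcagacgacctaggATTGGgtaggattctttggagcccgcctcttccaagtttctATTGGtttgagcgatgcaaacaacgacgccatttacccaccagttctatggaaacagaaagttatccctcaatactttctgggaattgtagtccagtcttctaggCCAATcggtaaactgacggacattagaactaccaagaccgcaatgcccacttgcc
Sc5d: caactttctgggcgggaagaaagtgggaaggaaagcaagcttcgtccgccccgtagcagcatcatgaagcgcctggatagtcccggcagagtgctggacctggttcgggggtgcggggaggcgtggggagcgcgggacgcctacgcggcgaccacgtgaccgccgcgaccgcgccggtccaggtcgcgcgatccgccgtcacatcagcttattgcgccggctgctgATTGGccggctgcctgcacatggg
Hmgcs1: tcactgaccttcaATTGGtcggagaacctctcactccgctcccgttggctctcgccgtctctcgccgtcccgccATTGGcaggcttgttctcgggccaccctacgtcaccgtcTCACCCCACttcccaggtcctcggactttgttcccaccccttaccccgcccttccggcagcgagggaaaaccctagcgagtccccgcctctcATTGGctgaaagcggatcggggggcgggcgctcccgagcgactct

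A CCAAT box, the motif bound by NF-Y, a usual partner of the sterol response factors, was found upstream of 20 of the 25 members. Over all genes in the table, 37.5% of 27025 held one. The Sp1 type motif GGGCGG was also found in 20 of 25, against 35.4% of all genes. The E-box CACGTG was found in 5 of 25 members, namely Hsd17b7, Sc5d, Dhcr7, Scap and Insig1, against 6.86% of all genes. TCACNCCAC was found in 1 of 25, against 1.22%. Both strands were searched, and a gene with several starts counted once if any start held the motif, for members and for all genes alike. The members shown from KO against WT did not differ in whether they held CCAAT. Mvk had 5 matches, Fasn and Ggps1 had 3 each, Mvd had 2 and Sc5d had 1. Adjoining capitals in Fasn are 2 overlapping matches. A match describes letters and not a bound site.

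Levels of the deleted genes were set against the genotype labels. In normalized counts, WT libraries held Tgfbr2 at 7876 and 7894, KO libraries at 5803 to 9442, while it was at 12544 to 13816 in IL4-/- and at 7762 to 8205 in IL4-/-KO. Reads outside the deleted part still count towards the gene, so this total is a weak check. Il4 stood at 107 and 276 in WT, 236 to 523 in KO, 75 to 97 in IL4-/- and 40 to 99 in IL4-/-KO. The 9 core T cell markers found in the table, of 10 listed, summed to 92171 to 208993 in each library, and none of the 9 was at 0. Epithelial markers were also present in every library of these sorted cells, and the 12 markers summed to 14976 to 227688. The libraries held 17121030 to 33802781 reads, in a shallower set (WT and the first KO libraries, up to 18479090) and a deeper set (the others, from 28003231). IL4-/- and WT therefore differed in depth set as well as genotype, and the 2 cannot be told apart.

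On the scale of normalized counts per kilobase of exon, which allows levels of different genes to be set side by side, Acly was the most abundant member, at a mean of 1579 over the 8 replicates, with the libraries of a KO replicate averaged first. Acly makes cytosolic acetyl-CoA from citrate. Srebf1 (1012), Ebp (859), Scd2 (719) and Srebf2 (685) followed. Acaca, which commits acetyl-CoA to fatty acid synthesis, was the lowest at 15, below Tm7sf2 (25.6) and Idi1 (27.4). Within a genotype, the median member differed between its 2 replicates by 0.48 on the log2 scale in WT, 0.48 in KO, 0.35 in IL4-/- and 0.45 in IL4-/-KO. Over all genes tested the same medians were 0.84, 0.73, 0.55 and 0.47. By these medians the members were no more variable than the typical gene in any genotype, but genes of matched level were not compared.

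The heat map of all members shows that the most extreme levels sat in single libraries rather than in whole genotypes. The repeat library of KO replicate 2 was the lowest of 10 for, among others, Hmgcs1 (259), Ggps1 (451), Cyp51 (533), Nsdhl (172), Hsd17b7 (92) and Sc5d (1159). That library was also the highest of 10 for, among others, Srebf2 (10781), Scap (8269), Fasn (9456), Mvk (907) and Mvd (1006). It was made from the same RNA as the first library of that replicate, in which Nsdhl stood at 965 and Fasn at 4372. Between those 2 libraries, 13 of 30 members differed by over 1 on the log2 scale, with a median size of 0.75 for members and 0.79 for all genes. Between the libraries of KO replicate 1, 2 members did so, with medians of 0.36 and 0.42. For the tests, both libraries of each KO replicate entered as their mean on the log2 scale.

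**Figure D1:**
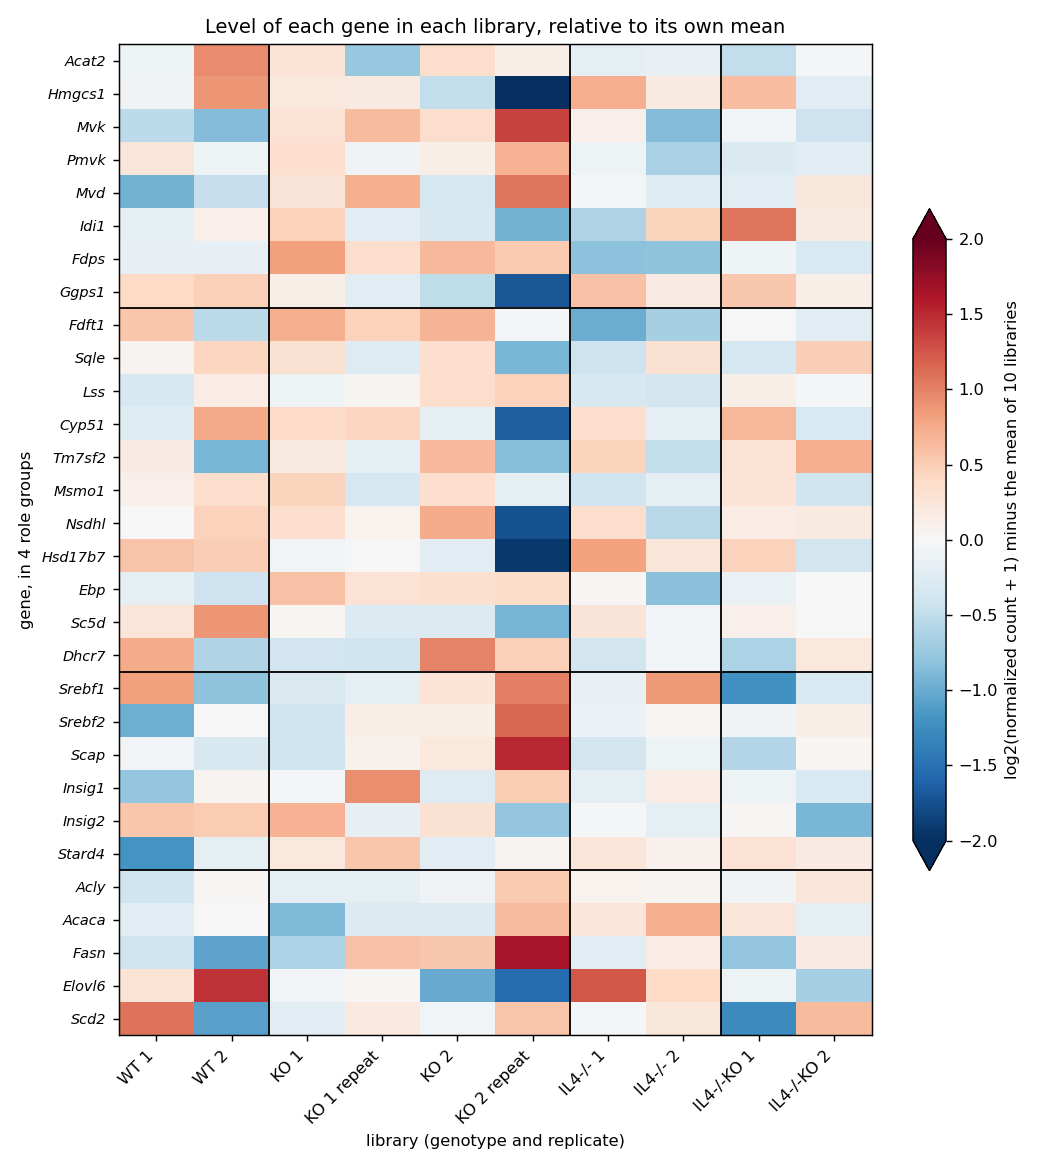
Heat map of the 30 genes (rows, in 4 role groups) in the 10 libraries (columns), coloured by log2(normalized count + 1) minus the gene's mean over the libraries, with colours ending at 2 in either direction. The repeat library of KO replicate 2 holds the deepest blue cells, such as Hsd17b7 at 92 normalized counts, and the deepest red ones, such as Fasn at 9456.

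KO against WT asks what loss of the receptor does in tumour-bearing mice that have Il4. Tests used limma on log2(normalized count + 1), with p-values adjusted by the Benjamini-Hochberg method over all genes tested, and no member passed 0.05, where 0.00691% of all genes (1 gene) did. The smallest adjusted p of a member was 0.34, for Sc5d. By unadjusted limma p under 0.05, 4 members were higher in KO (Mvk, Mvd, Fdps and Fasn), where 4.42% of all genes were, and 2 were lower (Ggps1 and Sc5d), where 8.69% were. In all, 17 members lay above 0 and 13 below, with a median of 0.15, while the median of all genes lay at -0.20 and 41.8% of them lay above 0. The libraries of KO and WT did not overlap for 4 members higher in KO (Mvk, Mvd, Fdps and Ebp), against 10% of all genes, and for 4 lower in KO (Ggps1, Hsd17b7, Sc5d and Elovl6), against 12.5%.

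IL4-/-KO against IL4-/- asks the same on the Il4-deficient background. No member had an adjusted p under 0.05 and none had an unadjusted limma p under 0.05, where 0% and 3.19% of all genes did. Again 17 members lay above 0 and 13 below, with a median of 0.04 against -0.03 for all genes. Libraries did not overlap for 3 members higher in IL4-/-KO (Fdps, Fdft1 and Lss), against 16.8% of all genes, and for 3 lower (Srebf1, Acaca and Elovl6), against 16.2%. These shares are near or below the background. The pair of comparisons shares no library, and 20 of 30 members had the same sign in both, 12 higher and 8 lower, against 59.2% of all genes. Fdps was the 1 member separated upward in both, as were 4.06% of all genes, and Elovl6 the 1 separated downward in both, as were 3.2%.

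Averaged over both backgrounds, Tgfbr2 deletion gave 0 members with an adjusted limma p under 0.05, against 0.0207% of all genes, and 2 with an unadjusted p under 0.05 (Fdps higher and Elovl6 lower), against 10.5%. With 1 replicate left out at a time, Fdps differed by 0.62 to 0.73. Elovl6 then differed by -1.66 without KO replicate 1 to -1.03 without KO replicate 2. The count was 4 with the first KO libraries only, against 9.89% of all genes. It was 8 with the epithelial markers as a covariate, against 19.2%, and both fits held Fdps and Elovl6. With the transcript length trend removed it was 5, against 9.53%, Elovl6 not among them. With the core T cell markers as a covariate it was 3 (Hmgcs1, Sc5d and Elovl6), against 11.1%, and no longer held Fdps. Count-based tests on the recovered reads called no member either. DESeq2 called 4.03% of all genes in KO against WT, 0.352% in IL4-/-KO against IL4-/- and 2.43% over both backgrounds, and edgeR called 0%, 0% and 0.0138%. In KO against WT, 6 members had an unadjusted p under 0.05 by DESeq2, against 16.4% of all genes, and 5 by edgeR, against 11.9%. The smallest adjusted p of a member by DESeq2 was 0.0616, in KO against WT.

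**Figure D2:**
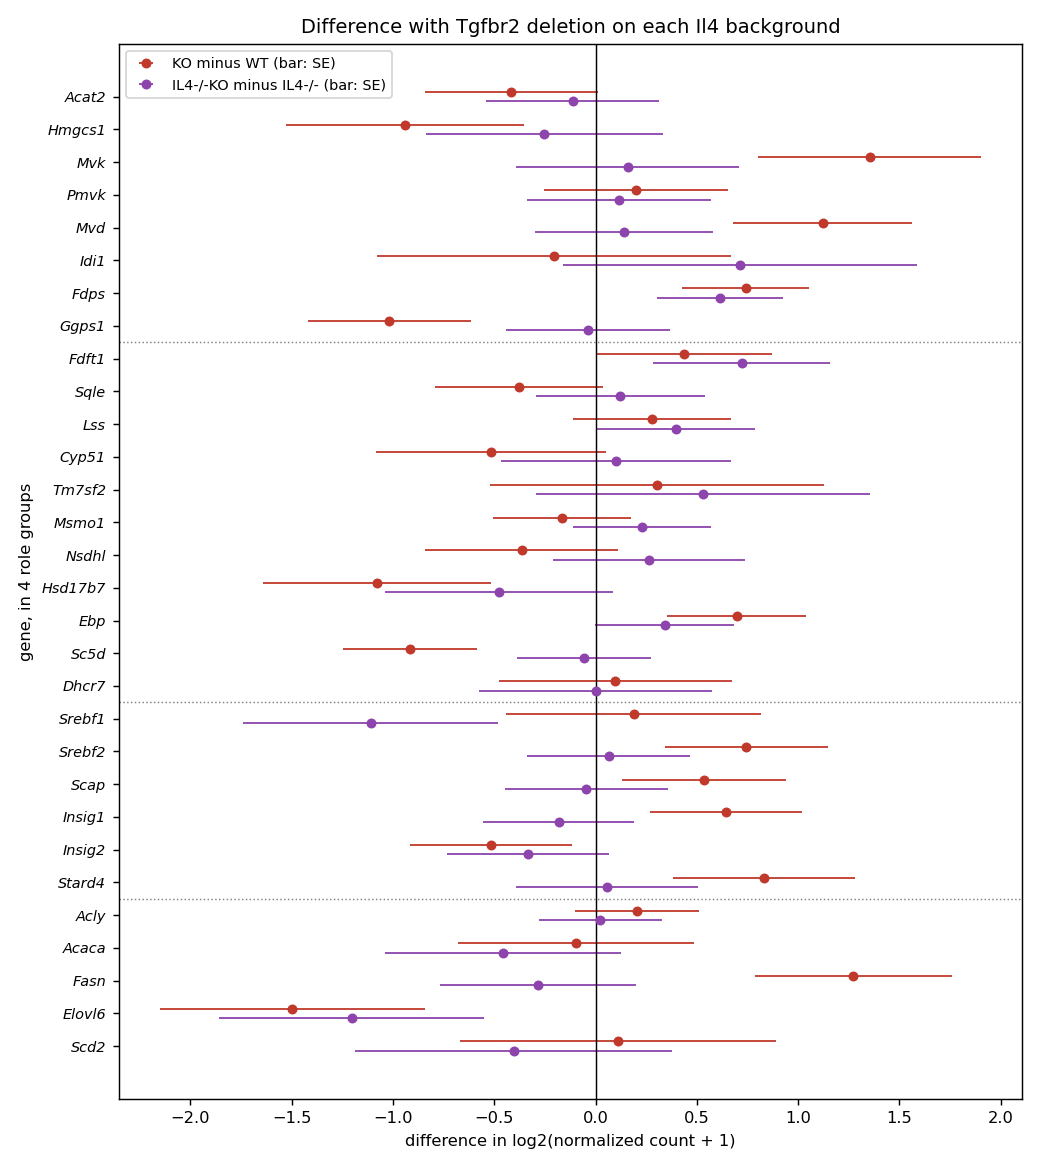
Difference in log2(normalized count + 1) for each of the 30 genes with Tgfbr2 deletion, KO minus WT in red and IL4-/-KO minus IL4-/- in purple, with bars of 1 standard error from limma. Fdps lies to the right of 0 (0.74 and 0.61) and Elovl6 to the left (-1.50 and -1.20) on both backgrounds, while Mvk, Mvd, Fasn, Ggps1 and Sc5d lie far from 0 in red only.

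Among the mevalonate and isoprenoid enzymes, Fdps (chr3:89093588-89101959) gave the tightest pattern. WT libraries held it at 873 and 873 normalized counts, and it stood at 1714, 1242, 1521 and 1403 in KO, 549 and 558 in IL4-/-, and 917 and 786 in IL4-/-KO. Here and below, replicate 1 comes before replicate 2, and for KO the first library of a replicate comes before its repeat. All KO libraries lay above all others, and both IL4-/- libraries lay below all others. The difference of KO from WT was 0.74 on the log2 scale (SE 0.31), a 1.67-fold higher level, with an adjusted p of 0.38 by limma. Its unadjusted limma p was under 0.05 in the main fit. It was above 0.05 with only the repeat KO libraries, only these genotypes or no mean-variance trend. The same held with a replicate block or the core T cell markers as a covariate. Fits with 1 replicate left out are not in this list, as they leave a genotype with 1 replicate. On the Il4-deficient background the difference was 0.61 (SE 0.31, adjusted p = 1 by limma), and averaged over both it was 0.68 (SE 0.22, adjusted p = 0.41 by limma). Part of its exons (1124 of 4208 bases) lie in those of Gm43738, a gene model on the same strand, so reads there could be assigned to either.

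Mvk phosphorylates mevalonate and Mvd removes its carboxyl group. Mvk (chr5:114444269-114460591) stood at 244 and 194 in WT, 431, 550, 449 and 907 in KO, 377 and 193 in IL4-/-, and 339 and 266 in IL4-/-KO. Mvd (chr8:122433601-122443422) stood at 248 and 349 in WT, 572, 781, 374 and 1006 in KO, 469 and 405 in IL4-/-, and 410 and 564 in IL4-/-KO. For both genes each KO library exceeded both WT libraries, while the ranges of IL4-/- and IL4-/-KO overlapped. In KO against WT, Mvk differed by 1.35 (SE 0.55, adjusted p = 0.37 by limma) and Mvd by 1.12 (SE 0.44, adjusted p = 0.36 by limma). On the Il4-deficient background the differences were 0.16 (SE 0.55) and 0.14 (SE 0.44). The test of that change between backgrounds gave an adjusted p of 0.97 for each by limma, so a difference between the backgrounds was not shown.

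Ggps1 (chr13:14050659-14063488) takes farnesyl diphosphate away from the sterol route, towards geranylgeranyl diphosphate. It stood at 1953 and 2050 in WT, 1603, 1265, 1041 and 451 in KO, 2223 and 1652 in IL4-/-, and 2147 and 1625 in IL4-/-KO. All KO libraries lay below those of every other genotype, and the lowest was the repeat library of KO replicate 2. KO differed from WT by -1.02 (SE 0.40, adjusted p = 0.36 by limma), and IL4-/-KO from IL4-/- by -0.04 (SE 0.40). Hmgcs1, which makes HMG-CoA, ranged from 259 to 1965 over the libraries. Acat2, a thiolase that joins acetyl-CoA units, ranged from 675 to 2193, Pmvk, the next kinase after Mvk, from 272 to 690, and Idi1, an isomerase of isoprenoid units, from 44 to 181. KO and WT libraries overlapped for these 4 genes. Across the 8 genes of these steps, 4 lay above 0 and 4 below in KO against WT (median 0.00), and 5 above and 3 below on the Il4-deficient background (median 0.13).

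**Figure D3:**
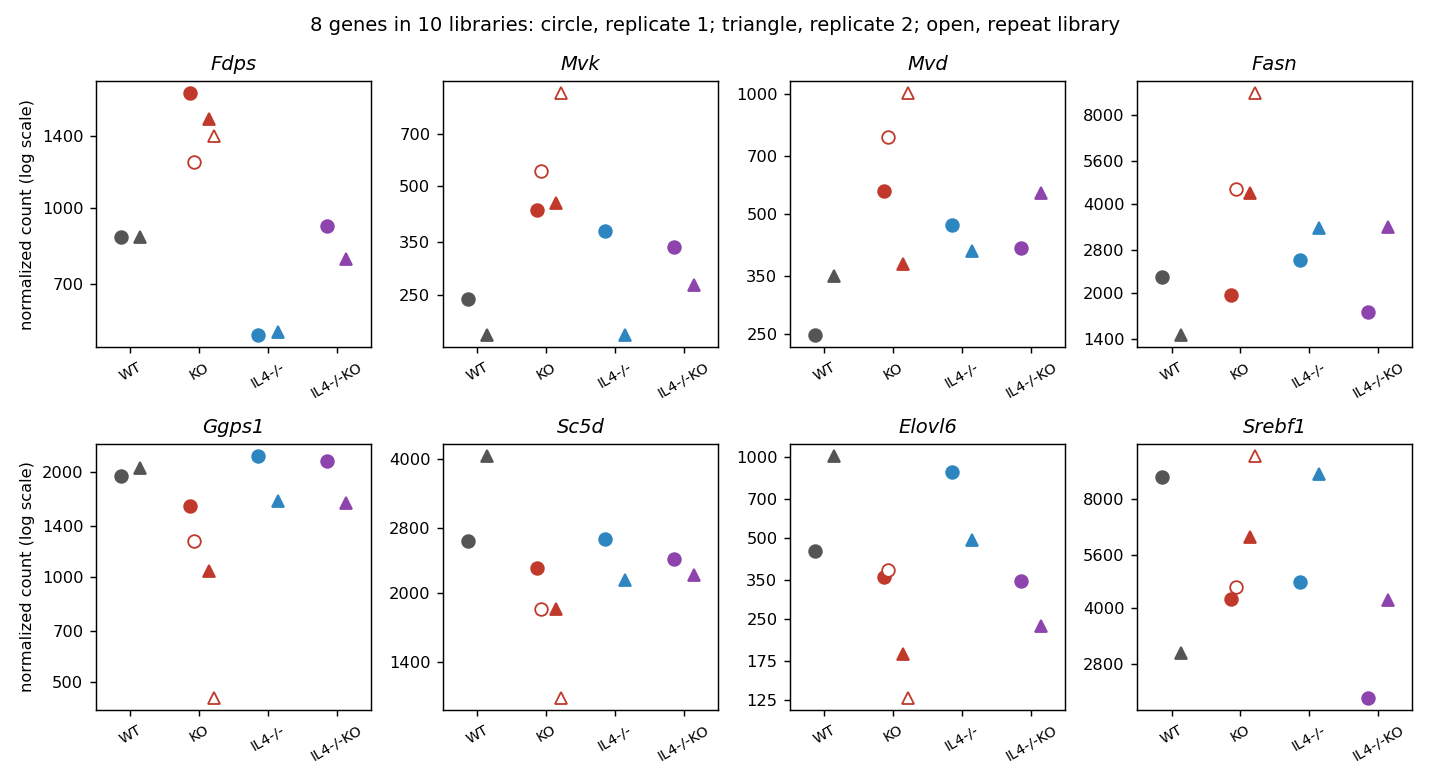
Normalized counts (log scale) of 8 genes in the 10 libraries by genotype, with circles for replicate 1, triangles for replicate 2 and open symbols for the repeat libraries of KO. Fdps is highest in all KO libraries (1242 to 1714) and lowest in IL4-/- (549 and 558), and Elovl6 is lower in KO and IL4-/-KO (127 to 380) than in WT and IL4-/- (448 to 1010).

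In the sterol branch, the median of 11 genes was -0.16 in KO against WT, with 5 above 0 and 6 below, and 0.23 on the Il4-deficient background, with 9 above and 2 below. Sc5d (chr9:42251595-42264256), a late-acting sterol desaturase, stood at 2608 and 4058 in WT, 2269, 1834, 1836 and 1159 in KO, 2637 and 2137 in IL4-/-, and 2377 and 2193 in IL4-/-KO. Every KO library lay below both WT libraries. KO differed from WT by -0.92 (SE 0.33, adjusted p = 0.34 by limma) and IL4-/-KO from IL4-/- by -0.06 (SE 0.33). Ebp (chrX:8185329-8193512), a sterol isomerase, stood at 1786 and 1533 in WT, 3082, 2500, 2558 and 2631 in KO, 2080 and 1154 in IL4-/-, and 1868 and 2062 in IL4-/-KO. Its KO libraries lay above those of every other genotype, with a difference from WT of 0.70 (SE 0.34, adjusted p = 0.42 by limma).

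Fdft1 (chr14:63145150-63179578), squalene synthase, commits farnesyl diphosphate to sterols. It stood at 1325 and 623 in WT, 1469, 1241, 1438 and 880 in KO, 452 and 564 in IL4-/-, and 894 and 776 in IL4-/-KO. Both IL4-/- libraries lay below all others, and IL4-/-KO exceeded IL4-/- by 0.72 (SE 0.43, adjusted p = 1 by limma). Its exons overlap those of Ctsb on the other strand over 774 of 4227 bases, and whether counting used strand was not given in the sources used here. Ctsb, a lysosomal protease gene, was read at 14895 to 37335 normalized counts, far above Fdft1. Of the enzymes that follow, Sqle, the squalene epoxidase, ranged from 655 to 1737 over the libraries and Lss, which cyclises its product to lanosterol, from 492 to 880. Cyp51 ranged from 533 to 2831, Msmo1 from 910 to 1642, Nsdhl from 172 to 965, Tm7sf2, a sterol reductase, from 55 to 173, and Dhcr7 from 767 to 2351. KO and WT libraries overlapped for these 7 genes. Hsd17b7, which acts with Msmo1 and Nsdhl in removing methyl groups from the sterol ring, stood at 524 and 498 in WT and 340, 356, 306 and 92 in KO, and no KO library reached WT, with a difference of -1.08 (SE 0.56, adjusted p = 0.45 by limma).

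Among the regulators, 5 of 6 lay above 0 in KO against WT, with a median of 0.59 against -0.20 for all genes, and 2 of 6 did so on the Il4-deficient background, with a median of -0.11. Srebf2 (chr15:82147181-82205379), the factor tied to cholesterol genes, stood at 2484 and 4833 in WT, 3698, 5355, 5312 and 10781 in KO, 4492 and 5029 in IL4-/-, and 4622 and 5354 in IL4-/-KO. Scap (chr9:110333288-110384950), the escort that carries it to the Golgi, stood at 2818 and 2330 in WT, 2205, 3100, 3366 and 8269 in KO, 2261 and 2726 in IL4-/-, and 1933 and 2997 in IL4-/-KO. Ranges of KO and WT overlapped for both, and the highest value of each was the repeat library of KO replicate 2. KO against WT gave 0.74 (SE 0.40, adjusted p = 0.46 by limma) for Srebf2 and 0.54 (SE 0.40, adjusted p = 0.59 by limma) for Scap.

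Insig1 and Insig2 encode the anchors that retain Scap. Insig1 stood at 767 and 1365 in WT, 1286, 2493, 1098 and 1860 in KO, 1143 and 1449 in IL4-/-, and 1216 and 1059 in IL4-/-KO. Insig2 stood at 1494 and 1443 in WT, 1639, 904, 1255 and 595 in KO, 997 and 885 in IL4-/-, and 1028 and 539 in IL4-/-KO. In KO against WT the anchors lay on opposite sides of 0, at 0.64 (SE 0.37, adjusted p = 0.48) for Insig1 and -0.52 (SE 0.40, adjusted p = 0.60) for Insig2 by limma, and both sets of libraries overlapped. Stard4, a cytosolic sterol carrier, stood at 295 and 601 in WT, 788, 992, 578 and 700 in KO, 805 and 720 in IL4-/-, and 828 and 757 in IL4-/-KO. WT replicate 1 was the lowest library, and WT replicate 2 lay within the range of KO. Srebf1 (chr11:60199089-60222581), tied more to fatty acid genes, stood at 9202 and 3005 in WT, 4256, 4566, 6309 and 10532 in KO, 4722 and 9392 in IL4-/-, and 2261 and 4211 in IL4-/-KO. Its WT replicates spanned most of the range of KO, and both IL4-/-KO libraries lay below both IL4-/- libraries, by 1.11 on the log2 scale (log2 difference -1.11, SE 0.63, adjusted p = 1 by limma).

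Of the 5 fatty acid synthesis genes, 3 lay above 0 in KO against WT (median 0.11) and 1 did so on the Il4-deficient background (median -0.40). Elovl6 (chr3:129532355-129638495) stood at 448 and 1010 in WT, 357, 380, 185 and 127 in KO, 881 and 491 in IL4-/-, and 346 and 235 in IL4-/-KO. Every library with the Cre transgene lay below every library without it. The difference was -1.50 in KO against WT (SE 0.65, adjusted p = 0.38 by limma), a 2.82-fold lower level, and -1.20 on the Il4-deficient background (SE 0.65, adjusted p = 1 by limma). Averaged over both it was -1.35 (SE 0.46, adjusted p = 0.41 by limma).

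Fasn (chr11:120805846-120824547), fatty acid synthase, stood at 2271 and 1442 in WT, 1967, 4509, 4372 and 9456 in KO, 2584 and 3321 in IL4-/-, and 1729 and 3350 in IL4-/-KO. Its other KO libraries exceeded both WT libraries, while the first library of KO replicate 1 lay between the WT values. The difference of KO from WT was 1.27 (SE 0.49, adjusted p = 0.35 by limma), and IL4-/-KO differed from IL4-/- by -0.28 (SE 0.49). In both KO replicates the repeat library read Fasn higher than the first library of the same RNA, by 1.20 and 1.11 on the log2 scale. Acly ranged from 6298 to 11838, Acaca from 129 to 389 and Scd2, a desaturase, from 1461 to 7514. Scd2 was highest in WT replicate 1, at 7514, against 1656 in WT replicate 2, and lowest in IL4-/-KO replicate 1, at 1461, against 5478 in IL4-/-KO replicate 2.

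KO against WT could also be read within one depth set, with the first KO libraries only. There, Fdps differed by 0.89 (SE 0.28, adjusted p = 0.47 by limma) and Elovl6 by -1.38 (SE 0.59, adjusted p = 0.51 by limma). The other members named above had smaller differences than with all libraries, at 1.01 for Mvk, 0.65 for Mvd, 0.70 for Fasn, -0.63 for Ggps1 and -0.67 for Sc5d, and none of these had an unadjusted limma p under 0.05. With the repeat libraries only, the same 5 genes gave 1.70, 1.59, 1.85, -1.40 and -1.16, and Fdps gave 0.60. Without KO replicate 2, Fasn differed by 0.72 and Ggps1 by -0.49, and without KO replicate 1 by 1.83 and -1.54. Sc5d differed by -0.60 without WT replicate 2 and by -1.23 without WT replicate 1. The members' median was 0.013 without KO replicate 2 and 0.29 without KO replicate 1, beside -0.14 and -0.18 for all genes.

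Marker genes of T cells moved with the same comparison. The core T cell markers summed to 181339 to 208993 in KO and 100271 to 144963 in WT, which did not overlap, and to 158784 to 163868 in IL4-/-KO and 92171 to 160531 in IL4-/-. With their mean log2 level as a covariate, KO against WT gave 0.75 for Fdps, 0.95 for Mvk, 0.86 for Mvd and 0.27 for Ebp, none with an unadjusted limma p under 0.05. The same fit gave -2.54 for Elovl6, -1.46 for Ggps1, -1.35 for Sc5d and 1.88 for Fasn, each with an unadjusted limma p under 0.05 and an adjusted p of 0.29 to 0.30. In bulk libraries, fewer cells of a type and less RNA per cell cannot be told apart.

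Across the 8 replicates, Ebp followed the core T cell mean with a Pearson r of 0.86 (exact permutation p = 0.0074, adjusted p = 0.21) and a Spearman rho of 0.95 (exact permutation p = 0.0011, adjusted p = 0.051). Leaving out the 2 replicates farthest from the median of the T cell mean gave an r of 0.92. Mvk had an r of 0.77 (exact permutation p = 0.027, adjusted p = 0.35), a rho of 0.95 (exact permutation p = 0.0011, adjusted p = 0.051) and an r of 0.80 without those 2. For Mvd the r was 0.75 (exact permutation p = 0.031, adjusted p = 0.35), the rho 0.86 (exact permutation p = 0.011, adjusted p = 0.23) and the r without those 2 0.82. Adjustment was over 90 relations, of 30 members with 3 marker lists, and none of them passed. The permutations shuffled all 8 replicates irrespective of genotype, so a genotype difference common to a member and a list enters these values. Each depth set held too few replicates to give these values within it.

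Epithelial markers varied widely within genotypes. The 12 markers summed to 29163 and 227688 in the WT replicates, 67818 to 145377 in KO, 23552 to 68566 in IL4-/- and 14976 to 39677 in IL4-/-KO, and none was at 0 in any library. Srebf1 followed their mean with an r of 0.90 (exact permutation p = 0.0039, adjusted p = 0.18), a rho of 0.79 (exact permutation p = 0.028, adjusted p = 0.31) and an r of 0.82 without the 2 farthest replicates. Dhcr7, a late reductase of cholesterol synthesis, gave an r of 0.89 (exact permutation p = 0.0035, adjusted p = 0.18), a rho of 0.83 (exact permutation p = 0.015, adjusted p = 0.23) and an r of 0.80 without them. Scd2 gave an r of 0.83 (exact permutation p = 0.012, adjusted p = 0.21), a rho of 0.83 (exact permutation p = 0.015, adjusted p = 0.23) and an r of 0.56 without them. Cyp51, which demethylates lanosterol, ran the other way, with an r of -0.77 (exact permutation p = 0.027, adjusted p = 0.35), a rho of -0.67 (exact permutation p = 0.083, adjusted p = 0.62) and an r of -0.84 without them. Stard4 gave an r of -0.70 (exact permutation p = 0.040, adjusted p = 0.40), a rho of -0.57 (exact permutation p = 0.15, adjusted p = 0.76) and an r of -0.16 without them. Hmgcs1 gave an r of -0.69 (exact permutation p = 0.0497, adjusted p = 0.45), a rho of -0.71 (exact permutation p = 0.058, adjusted p = 0.52) and an r of -0.86 without them. Of the 30 members, 13 had a positive r with the epithelial markers, from -0.77 to 0.90 over all.

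**Figure D4:**
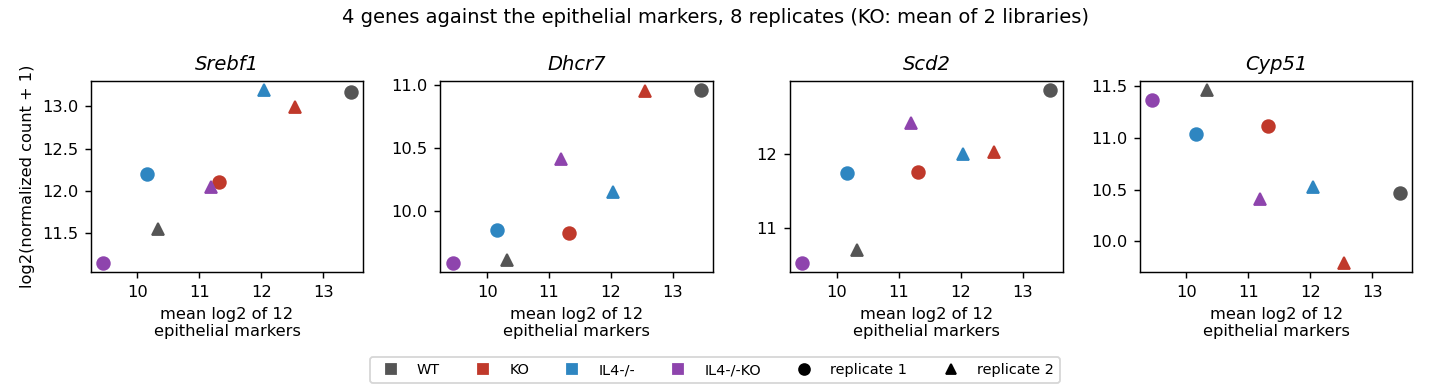
Levels of Srebf1, Dhcr7, Scd2 and Cyp51 as log2(normalized count + 1) against the mean log2 level of 12 epithelial markers, 1 point per replicate and coloured by genotype, with the libraries of a KO replicate averaged. Srebf1, Dhcr7 and Scd2 climb with the markers (r of 0.90, 0.89 and 0.83) and Cyp51 descends (r of -0.77), none past the adjusted threshold.

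Cell cycle genes were the third marker list. The 12 genes summed to 17571 and 30172 in the WT replicates, 25394 to 37798 in KO, 14675 to 22968 in IL4-/- and 32641 to 35098 in IL4-/-KO, and none was at 0 in any library. IL4-/-KO and IL4-/- did not overlap in this sum, as they did not for Fdps, Fdft1, Lss, Srebf1, Acaca and Elovl6. Srebf1 ran against the cell cycle mean, with an r of -0.86 (exact permutation p = 0.0097, adjusted p = 0.21), a rho of -0.83 (exact permutation p = 0.015, adjusted p = 0.23) and an r of -0.90 without the 2 farthest replicates. It was the 1 member of 30 with an unadjusted p under 0.05 for Pearson's r against this list, over which r ran from -0.86 to 0.65. The part of this list in the differences between genotypes was not tested.

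With the epithelial mean as a covariate, KO against WT stayed at 0.74 for Fdps (adjusted p = 0.23 by limma) and -1.48 for Elovl6 (adjusted p = 0.13 by limma), and Fasn was at 1.26 (adjusted p = 0.10 by limma). In that fit 9 members had an unadjusted limma p under 0.05, against 20.3% of all genes, and none an adjusted one. Adipocytes, a lipid-making cell of the mammary gland, had few reads, as the 4 of their 7 listed markers found in the table (Adipoq, Plin1, Fabp4 and Plin4) together summed to 0 to 66 normalized counts in each library. Macrophage markers summed to 4342 to 96085, with the highest sum in IL4-/- replicate 2, and milk protein genes to 411 to 38497. The part of these last 2 lists in the results was not tested.

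Loss of Il4 was read in IL4-/- against WT and in IL4-/-KO against KO. In IL4-/- against WT, 0 members had an adjusted and 0 an unadjusted limma p under 0.05, against 0% and 3.88% of all genes, and DESeq2 and edgeR called none, against 0.227% and 0%. Medians were -0.04 for members and 0.01 for all genes. With 1 replicate left out at a time, the members' median ran from -0.20 to 0.10. Libraries did not overlap for 5 members higher in IL4-/- (Mvd, Stard4, Acly, Acaca and Fasn), against 14.7% of all genes, and for 7 lower (Acat2, Pmvk, Fdps, Fdft1, Lss, Msmo1 and Insig2), against 14.6%. In the sterol branch 10 of 11 genes lay below 0, with a median of -0.29. The largest of these was Fdft1 at -0.85 (SE 0.43, adjusted p = 1 by limma). The IL4-/- libraries also serve in IL4-/-KO against IL4-/-, so opposite signs in that pair of comparisons are not separate observations. Fdps, Fdft1 and Lss, separated downward here and upward there, are such a case.

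In IL4-/-KO against KO, 0 members passed the adjusted threshold by limma, DESeq2 or edgeR, against 0%, 2.88% and 0% of all genes, and 1 member had an unadjusted limma p under 0.05, against 12.5%. That member was Fdps, at -0.78 (SE 0.31, adjusted p = 0.37 by limma), and with the repeat KO libraries only, which share the depth set of IL4-/-KO, it was at -0.64 (SE 0.36, adjusted p = 0.45 by limma), with an unadjusted p above 0.05. With 1 replicate left out at a time, Fdps kept an unadjusted limma p under 0.05 in 2 of 8 fits, those without a WT replicate. The members' median was -0.045 without IL4-/-KO replicate 1 and -0.27 without KO replicate 1. Libraries did not overlap for 1 member higher in IL4-/-KO (Ggps1), against 16.2% of all genes, and for 5 lower (Mvk, Pmvk, Fdps, Ebp and Srebf1), against 12.4%. The median of the members was -0.18, with 13 above 0 and 17 below, and that of all genes 0.05. This comparison shares its KO libraries with KO against WT, so opposite signs in the pair are not separate observations.

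The interaction asks whether the difference made by Tgfbr2 deletion depends on Il4. No member passed the adjusted threshold by limma, DESeq2 or edgeR, against 0%, 0.242% and 0% of all genes, and none had an unadjusted limma p under 0.05, against 3.77%. The members' median ran from -0.16 to 0.13 with 1 replicate left out at a time. The smallest p was that of Fasn, at -1.56 (SE 0.69, adjusted p = 0.97 by limma). Its unadjusted p was under 0.05 by DESeq2 and by edgeR. By limma it was above 0.05 with the first KO libraries only, or without the repeat library of KO replicate 2. It was under 0.05 by limma with the repeat KO libraries only, the transcript length trend removed, or the epithelial or core T cell covariate. Srebf1 also had an unadjusted limma p under 0.05 in both covariate fits. The Fasn difference was 1.27 on the Il4-sufficient background and -0.28 on the deficient one. The regulators had a median interaction of -0.73, with 5 of 6 below 0, such as Insig1 at -0.83 (SE 0.53, adjusted p = 0.97 by limma). The sterol branch had a median of 0.39, with 9 of 11 above 0, such as Sc5d at 0.86 (SE 0.47, adjusted p = 0.97 by limma), beside 0.12 for all genes.

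The neighbouring parts of lipid metabolism were followed in 40 further genes, none of which passed the adjusted threshold in any comparison by limma. Of 16 genes of other lipid synthesis and sterol response activation, 7 lay above 0 in KO against WT (median -0.11), and the smallest p-values were those of Acsl3 and Mbtps2. Acsl3, which activates fatty acids, stood at 1042 and 642 in WT, 334, 406, 272 and 146 in KO, 386 and 727 in IL4-/-, and 125 and 305 in IL4-/-KO, and each deletion group lay below its control. Over both backgrounds it differed by -1.51 (SE 0.46, adjusted p = 0.39 by limma). Mbtps2, a protease that releases the sterol response factors, stood at 169, 5, 76 and 37 in KO and 341 and 198 in IL4-/-KO, and IL4-/-KO exceeded KO by 2.64 (SE 0.82, adjusted p = 0.30 by limma). Its KO replicate 1 read 169 in the first library and 5 in the repeat.

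Of 12 genes of sterol efflux and esterification, 7 lay above 0 in KO against WT (median 0.22) and 4 on the Il4-deficient background (median -0.33). Ch25h, which makes 25-hydroxycholesterol, stood at 34 and 92 in WT and 4, 0, 14 and 0 in KO, close to the floor of 3 reads (2.55 to 4.41 normalized counts in KO libraries), and its adjusted p was 0.31 by limma. Abcg1, a sterol exporter, stood at 757 and 1146 in WT and 2133 and 1587 in IL4-/-, with no overlap (0.98, SE 0.36, adjusted p = 1 by limma). Of 12 fatty acid oxidation genes, 5 lay above 0 in KO against WT (median -0.14). Acadm, a mitochondrial dehydrogenase of medium-chain fatty acids, stood at 1645 and 1348 in WT, 910, 669, 574 and 714 in KO, 1170 and 942 in IL4-/-, and 679 and 847 in IL4-/-KO. Its difference over both backgrounds was -0.77 (SE 0.24, adjusted p = 0.40 by limma). Etfa, which passes electrons on from those dehydrogenases, stood at 4746 and 3897 in WT and 3339, 2564, 2101 and 776 in KO. That was a difference of -1.15 (SE 0.40, adjusted p = 0.33 by limma). On the Il4-deficient background Etfa was not lower with deletion, at 2529 and 2564 in IL4-/- and 2608 and 2921 in IL4-/-KO.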

How the data were processed

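The authors deposited a signal for each gene, its read count in a library divided by that library's size factor. Per the submitters' processing notes, bcl2fastq 2.18.0, STAR, DESeq2 and the mm10 build were used. The counter, annotation, strand setting and filters are not given in the sources used here. Per the labels' protocols, RNA was amplified with SMART-Seq v4, without molecular identifiers, so intervals and floors cover counting error only. All values (100%) were whole multiples of 1 read within 0.001 reads, worth 0.644 to 1.47 normalized counts, which recovered the reads. Of 17370 rows, 7 without a gene name (at most 0.0205% of a library) were left out.

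Members and gene lists were chosen with earlier results of these data known, so the lists were described and not tested. Genes with at least 10 normalized counts in 2 of 8 replicates were fitted with limma 3.58.1 in R 4.3.3 (two-sided, mean-variance trend, log2(normalized count + 1), 1 shared spread over 4 genotypes, 4 residual degrees of freedom). On this scale, changes of weakly expressed genes are understated. DESeq2 1.42.0 and edgeR 4.0.16 on the recovered reads called 527 and 0 genes in KO against WT. Members were given in every library where they had an unadjusted p under 0.05 in a comparison or the smallest p of their role group, the others by range; Hsd17b7 was added after its values were seen. From each neighbouring list the 2 genes with the smallest p were named. Correlations used exact permutation tests (scipy 1.17.1). Gene positions came from GENCODE on mm10, and figures from matplotlib 3.10.9. The fitting code was tested on simulated data. Alternatives covered the pseudocount, filter, scaling, variance trend, genotypes fitted, KO libraries, replicate block, count tests, marker covariates, transcript length and leaving out each replicate.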

Additional observations from a re-analysis of the deposited data

How the results depend on the processing

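No member passed the adjusted threshold in any comparison under any of 25 alternative settings, leaving out each replicate in turn included; fits of only the genotypes compared could not give the interaction or the mean over both backgrounds. The smallest adjusted p of a named member was 0.0616 (Fasn in KO against WT, DESeq2). The members' medians moved more. Removing the trend of differences on transcript length gave 0.63 in KO against WT, 0.25 in IL4-/-KO against IL4-/-, -0.12 in IL4-/- against WT, -0.44 in IL4-/-KO against KO, -0.17 in the interaction and 0.42 over both backgrounds, and it also moved the median of all genes in KO against WT from -0.20 to 0.18. Under it, KO against WT gave 2.05 for Fasn, -0.61 for Ggps1, -0.49 for Sc5d and -0.96 for Elovl6. Using the repeat KO libraries only gave medians of 0.22 in KO against WT and -0.12 in IL4-/-KO against KO, and dropping the repeat library of KO replicate 2 gave 0.057 in KO against WT and -0.060 in the interaction. The epithelial covariate gave -0.15 in IL4-/- against WT and -0.26 in IL4-/-KO against KO, and quantile normalization gave -0.11 and -0.27, while moving the median of all genes in KO against WT to -0.01. Leaving out 1 replicate gave medians of -0.027 to 0.29 in KO against WT, -0.091 to 0.17 in IL4-/-KO against IL4-/-, -0.20 to 0.10 in IL4-/- against WT, -0.27 to -0.045 in IL4-/-KO against KO, -0.16 to 0.13 in the interaction and 0.058 to 0.18 over both backgrounds. The cause of these shifts was not tested. Deviations of same-numbered replicates correlated at -0.36 to -0.20 in the 3 pairings with WT and at 0.17 to 0.24 in the 3 others, so the numbers were not taken to pair the samples. With a replicate block 0 members passed. At an unadjusted limma p under 0.05 it left 3 in KO against WT (Ggps1, Sc5d and Fasn), against 11.1% of all genes. It left 1 in IL4-/-KO against KO (Ggps1, and no longer Fdps), against 10.4%. With only the genotypes compared the count in KO against WT was 0, against 6.75%. Precision was limited by 2 replicates per genotype and by the spread between libraries of 1 RNA, and a difference as large as -1.50 (Elovl6 in KO against WT) did not pass the adjusted threshold.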
